A study of Rattus norvegicus with 18 samples.

Results

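The cluster of miR-183, miR-96 and miR-182 was represented in rat gastrocnemius muscle by 5 of the 909 entries in the deposited count table, found by taking every entry whose name after the species prefix is miR-183, miR-96 or miR-182, either arm included. They are rno-miR-182, rno-miR-183-5p, rno-miR-183-3p, rno-miR-96-5p and rno-miR-96-3p, and 4 of the 5 had a count in at least 1 library. Small RNA was sequenced in 18 libraries from the gastrocnemius of male Brown Norway rats, 1 library per rat. Young AL rats (replicates 1 to 6) were 6 months old and fed ad libitum. Old AL rats (replicates 7 to 12) were 28 months old and fed ad libitum, and old CR rats (replicates 13 to 18) were 28 months old and, from 2 months of age, had received 55% of the intake of control rats. Rats of all groups were fed ad libitum and housed together until 2 months of age and singly after that. The study asked which miRNAs change with age in muscle and whether caloric restriction (CR) alters those changes. There was no young CR group, so the effect of CR at 6 months was not measured here.

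The cluster genes lie together in the genome of vertebrates and are transcribed as one primary transcript, from which separate hairpins are cut. Each hairpin gives a mature miRNA from its 5′ or 3′ arm, which pairs with target mRNAs mainly through the seed at bases 2 to 8. The cluster is best known from sensory organs such as the retina and the inner ear, where miR-96 variants cause hearing loss, and miR-182 is also known as a regulator of the FoxO transcription factors that control protein breakdown in muscle.

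In the RefSeq annotation of GRCr8 the hairpin genes are all on the minus strand, in the order Mir183 (chr4:59756044-59756153), Mir96 (chr4:59755841-59755946) and Mir182 (chr4:59752246-59752307). Mir183 and Mir96 are 97 bases apart, Mir96 and Mir182 are 3533 bases apart, and the nearest annotated genes outside the locus are Nrf1 and Ube2h. The deposited table itself has no coordinates, and the submitters' notes name an older build, Rnor_6.0, so these positions serve as annotation only. The mature sequences that carry nearly all counts of the cluster are printed from RefSeq with the seed in capitals, together with rno-miR-3553, whose counts could not be separated from those of rno-miR-183-5p.
rno-miR-182: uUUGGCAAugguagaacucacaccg
rno-miR-96-5p: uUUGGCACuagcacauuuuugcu
rno-miR-183-5p: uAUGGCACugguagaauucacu
rno-miR-3553: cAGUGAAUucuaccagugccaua
The cluster members have related but not equal seeds. The letters UUGGCA at bases 2 to 7 are shared by rno-miR-182 and rno-miR-96-5p, and the letters UGGCAC at bases 3 to 8 are shared by rno-miR-96-5p and rno-miR-183-5p. Of the 686 known miRNAs of the table with a RefSeq sequence, none outside the cluster shares bases 2 to 7 with a member. Over all positions compared without gaps, seed included, rno-miR-182 and rno-miR-183-5p are the closest pair, with the same base at 18 of 22. Beyond the seed they have a common run UGGUAGAA that starts at base 9 of both. By comparison, rno-miR-182 and rno-miR-96-5p have the same base at 12 of 23 positions, and rno-miR-96-5p and rno-miR-183-5p at 13 of 22.

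The gene Mir3553 is annotated on the opposite strand of Mir183, and all 22 bases of rno-miR-183-5p are the reverse complement of bases within rno-miR-3553. The counts of these entries matched in every library, with 9457 counts of rno-miR-183-5p and 9442 counts of rno-miR-3553 in all and a largest difference of 9 counts in a library. The kit is labelled as strand-specific, but the sources used here do not give the strand setting of the counting. Reads from the 2 strands cannot be told apart, and both entries are taken as the same signal. No such match was found for rno-miR-182 or rno-miR-96-5p. The counts of rno-miR-183-3p lay within 2 counts of those of rno-miR-224-3p in every library (24 and 31 counts in all), at a level where this tolerance is as large as most of the counts.

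Library totals ranged from 34.9 to 83.1 M counts, with a median of 54.3 M for young AL, 67.9 M for old AL and 69.6 M for old CR. The miR-1 family, which defines striated muscle, made up between 60.7 and 86.8% of the counts of each library. It was summed over 4 entries, including a predicted candidate whose counts match those of another of them. The same reads may therefore be counted more than once, and the share is one of counts and not of reads. All 9 listed striated muscle miRNAs had counts. The unit CPM stands for counts per M, computed with TMM-scaled library totals, and the TMM factors ranged from 0.639 to 2.14. The reads carry no molecular identifiers and several can stem from 1 molecule, so limits from counts cover counting error only.

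The cluster was a minor part of the miRNA of this muscle, between 0.00103 and 0.0107% of the counts of a library. Averaged over the 18 libraries, rno-miR-182 had 23.6 CPM and rank 134 among the 763 known miRNAs, rno-miR-183-5p had 8.21 CPM and rank 180, and rno-miR-96-5p had 2.32 CPM and rank 249. The order rno-miR-182, rno-miR-183-5p, rno-miR-96-5p was the same in 18 of 18 libraries. No scaling by length was applied. Reads down to 12 nt were kept, so a count need not stand for a whole mature miRNA. A read may also have been counted under more than 1 entry. The CPM values, percentages and ranks rest on such totals and describe counts, not reads. Capture of different sequences into a library was not calibrated, and the order is likewise one of counts. The other arms were hardly detected. The 3p arm of miR-183 had 24 counts in 12 of the libraries, against which the 5p arm had 394 times as many, and rno-miR-96-3p was at 0 in all libraries, for which the upper limit is 3 counts in each library, or 0.0286 to 0.0898 CPM.

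The level of rno-miR-182 was higher in old AL than in young AL muscle. It was 7.81 CPM in the lowest, 12.9 in the median and 26.9 in the highest library of young AL. In old AL these values were 22.6, 30.4 and 45.0 CPM. All 6 old AL libraries lay above the median of young AL and 4 lay above its highest library, and the groups overlapped only through young AL replicate 2. The means were 14.3 ± 6.65 CPM (SD, n = 6) in young AL and 31.6 ± 8.41 CPM (SD, n = 6) in old AL, a log2 fold change of 1.15 ± 0.278 (SE) with a 95% interval of 0.55 to 1.76 and an adjusted p of 0.0440 in edgeR's quasi-likelihood test over all 732 entries tested. Calls needed an adjusted p no higher than 0.05 together with a fold change no lower than 1.5, and by this rule rno-miR-182 was upregulated. The call was close to the threshold. It was lost when any 1 of 10 of the 12 libraries was left out, and was kept without young AL replicate 2 (log2 fold change 1.42, adjusted p 0.00607) and without old AL replicate 8 (1.23, adjusted p 0.0460).

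The other members were also higher in old AL, without passing that test. Levels of rno-miR-183-5p were 2.18, 4.84 and 8.78 CPM in the lowest, median and highest library of young AL. In old AL they were 6.78, 9.16 and 12.5 CPM, and 3 of the 6 old AL libraries exceeded every young AL library. The log2 fold change was 0.92 ± 0.281 (SE) with an edgeR adjusted p of 0.0948. Levels of rno-miR-96-5p, the least abundant of the 3 main members, were 0.628, 1.65 and 2.13 CPM in young AL. In old AL they were 1.73, 2.67 and 4.54 CPM, with 5 of the 6 libraries above all of young AL. Its log2 fold change was 0.88 ± 0.292 (SE) with an edgeR adjusted p of 0.108. The sparse rno-miR-183-3p had 5 counts over the young AL libraries and 13 over the old AL libraries, with 3 and 1 libraries at 0, and no difference was detectable at this depth (log2 fold change 0.94 ± 0.935, edgeR adjusted p 0.627).

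**Figure D1:**
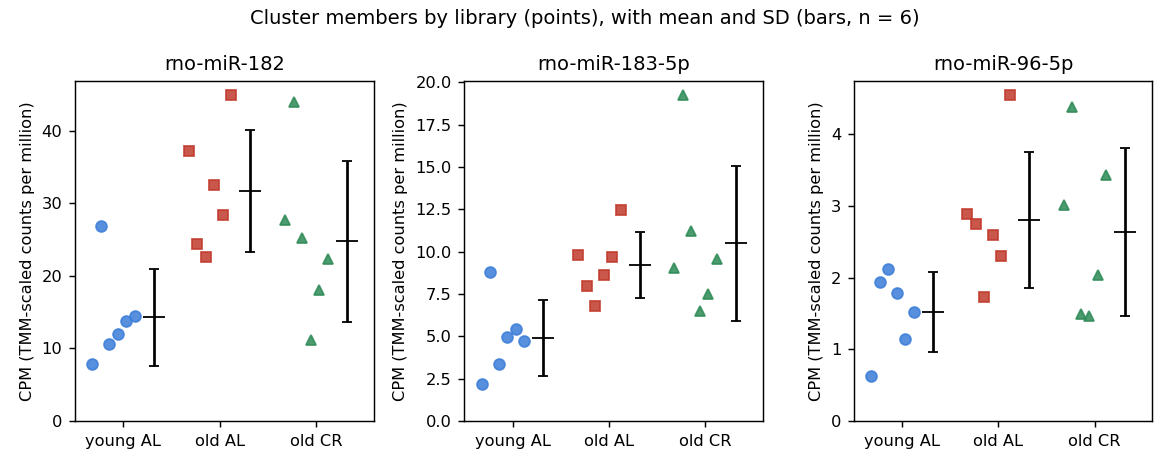
Level in CPM (linear axis from 0) of rno-miR-182, rno-miR-183-5p and rno-miR-96-5p in each library, by group, with points in replicate order and black bars for mean and SD (n = 6). For rno-miR-182, 4 of 6 old AL libraries sit above the highest young AL library at 26.9 CPM, and old CR spreads from 11.1 to 44.0 CPM.

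By edgeR 1 of the 4 tested members was upregulated in old AL, where 0.956% of all tested entries (7 of 732) were called higher. DESeq2, the tool used by the study, called 3 of the 4 with adjusted p of 0.000577 for rno-miR-182, 0.0126 for rno-miR-183-5p and 0.0288 for rno-miR-96-5p, where it called 4.92% of all entries higher. At an unadjusted edgeR p under 0.05, 3 of the 4 members were higher, beside 11.3% of all entries. No member had groups that did not overlap, beside 3.55% of all entries. The median log2 fold change of all entries tested was 0.06 after TMM scaling, which itself centres most entries near 0. With library totals alone the log2 fold change of rno-miR-182 was 1.33 (adjusted p 0.172) and edgeR called 0 of all entries. These 3 members are not independent of each other, as the correlations given further down show.

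In old CR against young AL, rno-miR-183-5p had the largest difference of the members and none was called by edgeR. Its levels in old CR were 6.49, 9.30 and 19.2 CPM in the lowest, median and highest library, with 4 of the 6 libraries above all of young AL. The highest value came from replicate 14. The log2 fold change was 1.09 ± 0.344 (SE), with a 95% interval of 0.35 to 1.84 and an edgeR adjusted p of 0.0672. Without old CR replicate 14 it was 0.83 (adjusted p 0.146), and without young AL replicate 2 it was 1.34 (adjusted p 0.0347), past the threshold.

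Levels of rno-miR-182 in old CR were 11.1, 23.8 and 44.0 CPM, and 2 of the 6 libraries lay above all of young AL. The log2 fold change was 0.79 ± 0.346 (SE) with an edgeR adjusted p of 0.175. For rno-miR-96-5p the levels were 1.46, 2.52 and 4.38 CPM, with 3 of the 6 libraries above all of young AL, and the log2 fold change was 0.79 ± 0.349 (SE) with an edgeR adjusted p of 0.181. Both therefore had old CR libraries within the young AL range and others beyond it. The count of rno-miR-183-3p was 6 over the old CR libraries, with a log2 fold change of 0.23 ± 1.06 (SE, edgeR adjusted p 0.943).

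The edgeR calls in old CR against young AL took in 0 of the 4 members, beside 4.11% of the 730 entries tested called higher. DESeq2 called rno-miR-183-5p (adjusted p 0.00933) and no other member, beside 6.71% of all entries called higher. At an unadjusted edgeR p under 0.05, 3 of the 4 members were higher, beside 12.1% of all entries, and no member had groups that did not overlap, beside 5.75%. Both comparisons with young AL share the same 6 young libraries, so their values are given side by side and are not separate evidence.

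No member passed the test of a difference in level between old CR and old AL. The log2 fold change in old CR against old AL was -0.35 for rno-miR-182, with a 95% interval of -0.98 to 0.28 and an edgeR adjusted p of 0.674. For rno-miR-183-5p it was 0.19, with an interval of -0.37 to 0.76 and an edgeR adjusted p of 0.834. For rno-miR-96-5p it was -0.08, with an interval of -0.77 to 0.60 and an edgeR adjusted p of 0.978. These intervals leave room for differences in either direction, so equal levels are not shown. For rno-miR-182, 3 of the 6 old CR libraries lay below all old AL libraries and none lay above. Of all 736 entries tested, edgeR called 0.272% (2 entries) and DESeq2 2.58%, with 0 members among either. Of the members, 0 had an unadjusted edgeR p under 0.05, beside 12.0% of all entries, and 0 had groups that did not overlap, beside 0.543%.

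**Figure D2:**
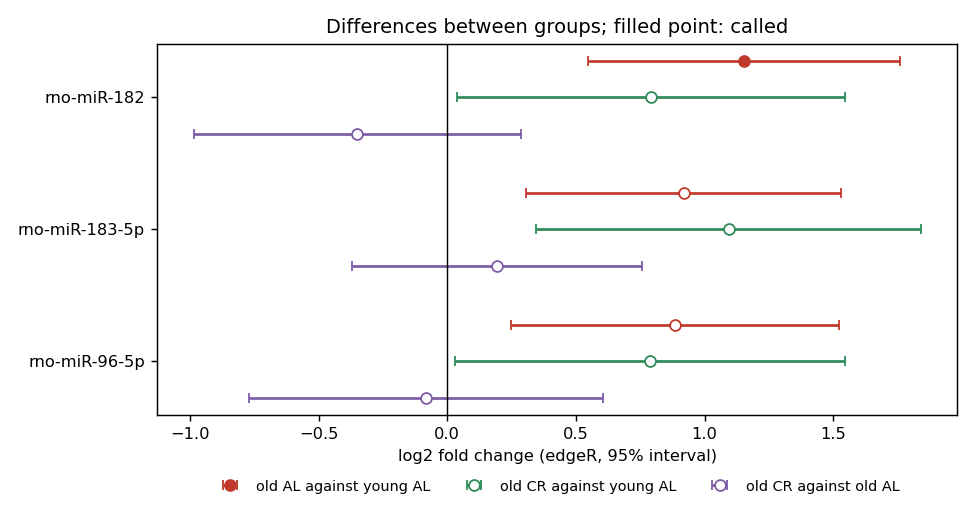
Log2 fold change (x axis) of each of 3 members (rows) in the 3 comparisons (colours), with 95% intervals from edgeR. The filled point is the one called difference, rno-miR-182 in old AL against young AL at 1.15, and the intervals for old CR against old AL all include 0.

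The balance between members differed between the old groups although their levels did not pass the test. A ratio of counts within a library needs no normalization between libraries. The log2 ratio of rno-miR-183-5p to rno-miR-182 was -1.92 in the lowest and -1.55 in the highest library of old AL. In old CR it ran from -1.61 to -0.78. Of the 6 old CR libraries, 5 lay above all old AL libraries and replicate 13 lay within their range. The mean was -1.21 ± 0.267 (SD, n = 6) in old CR and -1.76 ± 0.156 (SD, n = 6) in old AL, a difference of 0.55. An exact two-sided permutation test over all arrangements of the 12 libraries gave p = 0.00433 (0.0260 adjusted over 6 ratio tests), where the smallest possible p is 0.00216. With each library left out in turn the difference was 0.47 to 0.64 and the adjusted p 0.0130 to 0.0390.

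Expressed as shares, rno-miR-182 took 68.7 ± 3.62% of young AL, 72.2 ± 2.04% of old AL and 64.7 ± 3.80% of old CR cluster counts (SD, n = 6 each). The share of rno-miR-183-5p was 23.4 ± 2.65%, 21.3 ± 1.77% and 28.1 ± 3.68% in the same order. The share of rno-miR-96-5p was 7.79 ± 3.11%, 6.36 ± 0.967% and 7.11 ± 1.88%. Old CR libraries thus had more rno-miR-183-5p per rno-miR-182 than old AL libraries. The log2 ratio in old CR against young AL differed by 0.35 (exact permutation p = 0.0195, adjusted 0.0584) and in old AL against young AL by -0.21 (exact permutation p = 0.0866, adjusted 0.173), neither past the threshold after adjustment. For the ratio of rno-miR-96-5p to rno-miR-182 the differences were -0.30 in old AL against young AL, -0.01 in old CR against young AL and 0.29 in old CR against old AL, with adjusted exact permutation p of 0.364, 0.974 and 0.308.

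**Figure D3:**
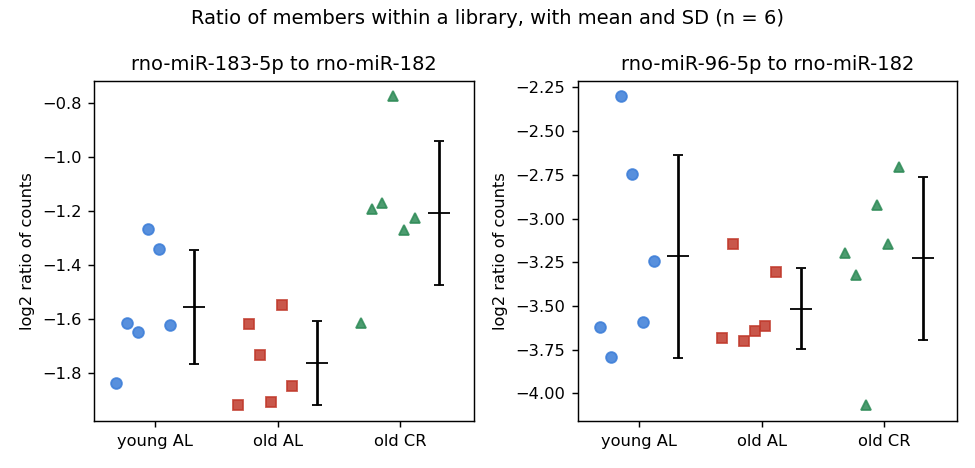
Log2 ratio of counts within each library (y axis) of rno-miR-183-5p to rno-miR-182 (left) and rno-miR-96-5p to rno-miR-182 (right), by group, with points in replicate order and bars for mean and SD (n = 6). On the left, 5 of 6 old CR libraries sit above all old AL libraries, while on the right the 3 groups overlap.

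Levels of the members varied together from rat to rat. After the mean of each group was subtracted from the log2 CPM, rno-miR-182 and rno-miR-183-5p had a Pearson r of 0.92 over the 18 libraries (permutation p = 3.0e-05, adjusted 0.000180 over 6 values) and a Spearman rho of 0.82 (permutation p = 0.000150, adjusted 0.000450). Without the 2 libraries farthest from the median of rno-miR-182, young AL replicate 2 and old CR replicate 16, r was 0.91. Within each group of 6 it was 0.95 (young AL), 0.92 (old AL) and 0.92 (old CR). This is the pair whose mature sequences are also most alike, and whether that has a part in the correlation was not tested.

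The level of rno-miR-96-5p followed the others less closely. With rno-miR-182 the r within groups was 0.70 (permutation p = 0.00503, adjusted 0.0101) and rho 0.61 (permutation p = 0.0154, adjusted 0.0185), and r was 0.65 without the 2 farthest libraries. In the single groups r was 0.57 among young AL, 0.86 among old AL and 0.75 among old CR libraries. With rno-miR-183-5p the r was 0.66 (permutation p = 0.00856, adjusted 0.0128) and rho 0.49 (permutation p = 0.0634), and r fell to 0.31 without young AL replicate 1 and old CR replicate 14. The r within groups over all libraries therefore depended strongly on those 2 libraries. In the single groups r of this pair was 0.62 among young AL, 0.88 among old AL and 0.65 among old CR libraries. Neither of the 2 libraries belongs to old AL. With the group differences kept, r over the 18 libraries was 0.91, 0.81 and 0.79 for the 3 pairs. Counts of rno-miR-96-5p were as low as 34 in a library, and the part of counting error in its weaker relation was not tested.

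**Figure D4:**
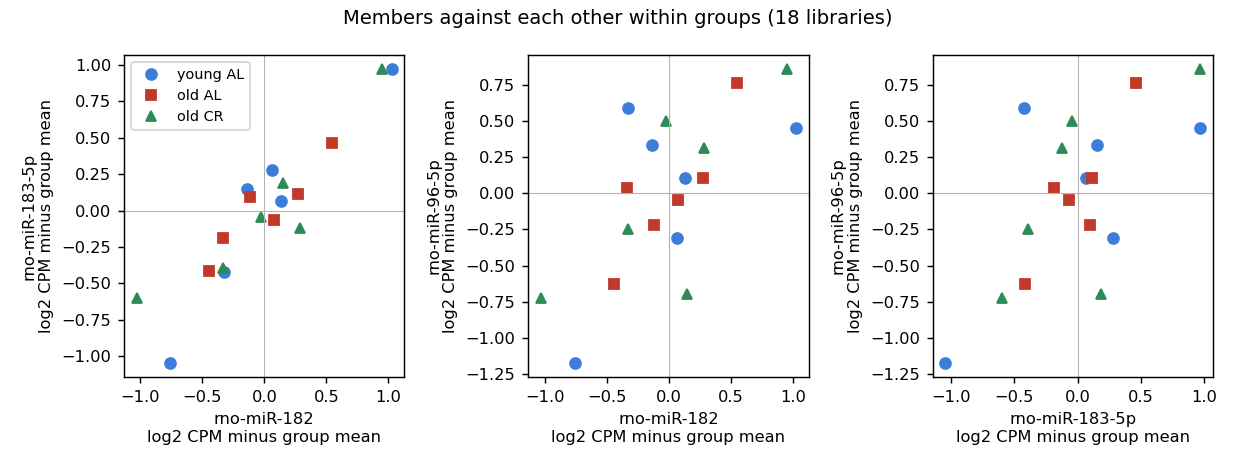
Log2 CPM minus the group mean for each pair of members, 1 point per library (18) and colours for groups. The points of rno-miR-182 and rno-miR-183-5p lie close to a line (r = 0.92), and those of rno-miR-96-5p with either of them scatter more widely (r = 0.70 and 0.66).

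Among the 535 other entries with a mean of at least 10 counts per library, cluster members were among the 4 entries most like each of rno-miR-182, rno-miR-183-5p and rno-miR-96-5p. By Pearson r of log2 CPM over the 18 libraries, the 5 entries closest to rno-miR-182 were rno-miR-183-5p (0.91), rno-miR-3553 (0.91), rno-miR-96-5p (0.81), rno-miR-212-5p (0.74) and rno-miR-31a-5p (0.69). For rno-miR-183-5p they were rno-miR-3553, the antisense entry with the same counts, then rno-miR-182 (0.91), rno-miR-212-5p (0.80), rno-miR-96-5p (0.79) and rno-miR-31a-5p (0.74). For rno-miR-96-5p they were rno-miR-182 (0.81), rno-miR-183-5p (0.79), rno-miR-3553 (0.78), rno-miR-429 (0.70) and rno-miR-200b-3p (0.66). The median r over all 535 entries was 0.03 with rno-miR-182, 0.04 with rno-miR-183-5p and 0.02 with rno-miR-96-5p, and the 95th percentiles were 0.52, 0.51 and 0.49. This background depends on the scaling, since with library totals in place of TMM the medians were 0.30, 0.28 and 0.31. With group means removed, rno-miR-31a-5p dropped to r = 0.44 (rank 22) with rno-miR-182 and to r = 0.32 (rank 58) with rno-miR-183-5p, whereas the other cluster members and rno-miR-3553 took ranks 1 to 3 with each of the 3 members. Outside the cluster, rno-miR-212-5p then kept r = 0.54 (rank 8) with rno-miR-182 and r = 0.59 (rank 4) with rno-miR-183-5p. The 95th percentiles within groups were 0.39 and 0.40 for these members. The epithelial rno-miR-429 and rno-miR-200b-3p, both of the miR-200 family, then had r = 0.56 (rank 5) and r = 0.48 (rank 9) with rno-miR-96-5p, where the 95th percentile was 0.41. These values are descriptions over libraries that share their preparation and depth.

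Technical properties of the libraries were set beside the members. Within groups, r of the log2 CPM of the 3 main members was -0.09 to -0.06 with the log2 TMM factor, 0.00 to 0.15 with the percentage of the miR-1 family and 0.03 to 0.25 with the log2 library total. Over the 18 libraries with group differences kept, r with the log2 library total was 0.43 for rno-miR-182, 0.46 for rno-miR-183-5p and 0.27 for rno-miR-96-5p, and young AL had the lowest median total. The part of depth in the group differences was not tested. The library numbers of young AL replicates 1 and 2 stand apart from those of the other libraries, and these rats had the lowest and the highest rno-miR-182 of their group, at 7.81 and 26.9 CPM. Without both, rno-miR-182 was still called in old AL against young AL, and rno-miR-183-5p was called as well (log2 fold change 1.01, adjusted p 0.0407) and also in old CR against young AL (adjusted p 0.0465).

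Some marker miRNAs of other cell types differed between the groups. Whether they have a part in the values of the cluster was not tested. In bulk tissue, fewer cells of a type and less RNA per cell cannot be told apart. The 8 listed epithelial miRNAs, which are the miR-200 family, miR-203 and miR-205, summed to 23.7 to 69.2 CPM in young AL, to 44.8 to 249 CPM in old AL and to 33.2 to 1291 CPM in old CR, and 0 of 8 were called in any comparison by edgeR, whereas DESeq2 called 3 of 8 higher in old CR against young AL. DESeq2 gave no adjusted p for 3 of the 8 in that comparison, for 1 in old AL against young AL and for 4 in old CR against old AL. At an unadjusted edgeR p under 0.05 there were 3 of 8 in old AL against young AL, 7 of 8 in old CR against young AL and 3 of 8 in old CR against old AL. Of all entries tested, 11.3% were higher at this p in old AL and 12.1% in old CR, each against young AL. In old CR against old AL 12.0% passed in either direction. The fitted log2 fold changes against young AL were above 0 for all 8, and their median was 1.22 in old AL and 3.16 in old CR, where the medians of all entries were 0.06 and 0.08. Their highest sum was in old CR replicate 14, with 144 CPM in the next library of that group, and this library also had the highest rno-miR-182, rno-miR-183-5p and rno-miR-96-5p of old CR. The 3 listed liver miRNAs, all of miR-122, summed to 0.840 to 54.5 CPM in young AL, to 69.9 to 1128 CPM in old AL and to 147 to 272 CPM in old CR, and in both comparisons with young AL all 3 had an unadjusted edgeR p under 0.05. For this list edgeR called 0 of 3 in old AL against young AL and 3 of 3 in old CR against young AL, and DESeq2 called 3 of 3 higher in both. In old CR against old AL 0 of 3 were called by either tool, with 0 at an unadjusted edgeR p under 0.05. Of the 19 listed neural miRNAs, 2 were called higher in old AL against young AL, 10 in old CR against young AL and 0 in old CR against old AL by edgeR (4, 11 and 3 by DESeq2, with 12 of 19 at an unadjusted edgeR p under 0.05 in the last), and their sum was 581 to 1039 CPM for young AL, 459 to 784 CPM for old AL and 469 to 769 CPM for old CR. The median of that sum was 731 CPM in young AL, 516 CPM in old AL and 716 CPM in old CR. It was thus not higher in either old group. By contrast, the median log2 fold change of the 19 against young AL was 0.81 in old AL and 2.27 in old CR. Values were above 0 for 14 and 17 of them. For 4 of the 19 DESeq2 gave no adjusted p in old CR against old AL. Against young AL, edgeR called 0.956% of all entries higher in old AL and 4.11% in old CR, and DESeq2 4.92% and 6.71%. In old CR against old AL the calls in either direction were 0.272% by edgeR and 2.58% by DESeq2.

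Within groups, the summed level of no list passed a test of correlation with rno-miR-182. The neural list had the largest values, with r = 0.50 (permutation p = 0.0516, adjusted 0.413 over 16 values), rho = 0.60 (permutation p = 0.0153, adjusted 0.245) and r = 0.29 without the 2 farthest libraries. The epithelial list had r = 0.12 (permutation p = 0.676, adjusted 0.914) and rho = -0.24 (permutation p = 0.376, adjusted 0.914). As values without a test, r of the epithelial sum was 0.26 with rno-miR-183-5p and 0.29 with rno-miR-96-5p, and the largest r of any list with these members was 0.56, for the erythroid sum with rno-miR-96-5p.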

How the data were processed

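Per the labels and the study's methods, small RNA libraries were made with a kit labelled strand-specific, the authors trimmed adapters with cutadapt 1.2.1 and low-quality ends at a window quality of 20, dropped reads under 12 nt, and identified miRNAs with miRDeep2. The submitters' processing notes also name Bowtie2 2.4.0 and Rnor_6.0. The authors deposited raw counts per miRNA, without normalization, for 763 known miRNAs and 146 candidates. The sources used here do not give the miRBase release, how strand was treated, or where reads matching more than 1 miRNA were placed.

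Counts were compared pairwise with edgeR 4.0.16 (R 4.3.3) by the quasi-likelihood test, with TMM factors, robust dispersion, entries with at least 10 counts over the 12 libraries and Benjamini-Hochberg adjustment over all of them. A standard error is the log2 fold change divided by the square root of its F statistic. Alternatives were DESeq2 1.42.0, other scalings and filters, a joint fit of the groups, no robust estimation, known miRNAs only, shared entries counted once and left-out libraries. The edgeR script was tested on simulated data. A prior count of 0.5 was added on the log2 scale. Correlations used 100000 permutations of libraries within groups. All tests were two-sided. The chi-square per degree of freedom between replicates was at least 982, so no library was counted as a repeat. Named miRNAs were the members, entries sharing bases 2 to 7 or counts with a member, the 5 most correlated entries and, from 8 marker lists, the 2 with the lowest p. Members and lists were chosen with earlier results of these data known.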

Additional observations from a re-analysis of the deposited data

Results flagged for a closer look

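In 18 groups of 6 values (4 members and both ratios in 3 groups), 3 had a highest library whose gap to the next was above Dixon's critical value of 0.625 of the range. For independent and normally distributed values chance gives about 1 such group in 20. The 18 groups are not independent, since members share libraries and correlate, and rno-miR-183-3p has only 0 to 3 counts in old CR libraries. The 3 groups therefore cannot be set against that rate. Young AL replicate 2 had 26.9 CPM of rno-miR-182 and the next library of that group 14.5 CPM, a gap of 0.650 of the range. Old CR replicate 14 had 19.2 CPM of rno-miR-183-5p and the next library 11.2 CPM, a gap of 0.631. The same library had 0.0557 CPM of rno-miR-183-3p, which is 3 counts, and the next library 0.0182 CPM, a gap of 0.672. Old CR replicate 14 is also the library with the highest sum of epithelial miRNAs, 1291 CPM, and its part in the level of rno-miR-183-5p was not tested.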

How the results depend on the processing

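In old AL against young AL the log2 fold change of rno-miR-182 kept its sign under all 12 alternatives (1.13 to 1.33) and all 12 left-out libraries (1.03 to 1.42, adjusted p 0.00607 to 0.114). Its call was lost with upper-quartile factors (1.18, adjusted p 0.0574), library totals (1.33, 0.172), library totals without the miR-1 family (1.21, 0.0579), no filter (1.17, 0.0526), no robust estimation (1.15, 0.0506) and shared entries counted once (1.14, 0.0653), each of which left 0 members called. The causes were not tested. DESeq2 called 3 members, adding rno-miR-183-5p (0.92) and rno-miR-96-5p (0.89). With known miRNAs only, 2 were called, rno-miR-183-5p at 0.91 (adjusted p 0.0375), and also 2 without young AL replicates 1 and 2, where it was 1.01. Leaving out each library gave 0 to 2 called members and 0.77 to 1.16 for rno-miR-183-5p, which was called without young AL replicate 2 (adjusted p 0.0349).

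In old CR against young AL, 1 member, rno-miR-183-5p, was called with DESeq2 (1.10), a single fit over the 3 groups (1.09, adjusted p 0.0263), known miRNAs only (1.09, adjusted p 0.0246) and without young AL replicates 1 and 2 (1.20). Leaving out each library gave 0 to 1 called members and 0.83 to 1.34 for it. In old CR against old AL 0 members were called under any alternative or left-out library.

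The correlation of rno-miR-183-5p and rno-miR-96-5p within groups was 0.51 to 0.77 with each library left out. It did not pass without young AL replicate 1 (0.51, adjusted p 0.0670) or without young AL replicates 1 and 2 (0.52, adjusted p 0.0964). The other 2 correlations passed throughout. The log2 ratio of rno-miR-183-5p to rno-miR-182 in old CR against young AL was 0.26 to 0.43 with each library left out and passed without young AL replicate 4 or old CR replicate 13. Against old AL it passed with each library left out and with a prior count of 2. The only other alternative for the ratios left out young AL libraries, which cannot change this comparison.

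No paired analysis was possible because each library came from a different rat and the groups were made of separate rats. Depth limits rno-miR-183-3p and rno-miR-96-3p, with 0 to 5 counts in a library.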

Other observations

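The remaining marker lists give the setting of the cluster in this muscle. Of the striated muscle list 8 of 9 miRNAs could be tested in each comparison, and 0 were called by edgeR or DESeq2, with 0 at an unadjusted edgeR p under 0.05. For rno-miR-486, a miRNA of muscle and red blood cells, the mean level was 508 CPM for young AL, 781 CPM for old AL and 575 CPM for old CR, with a log2 fold change of 0.62 and an edgeR adjusted p of 0.249 in old AL against young AL. For rno-miR-208b-3p, which lies in a slow myosin gene, it was 16.9 ± 21.4, 8.24 ± 11.0 and 7.04 ± 4.92 CPM. Of 8 miRNAs linked to muscle wasting edgeR called 0 in any comparison, with 2, 1 and 1 at an unadjusted p under 0.05 in old AL against young AL, old CR against young AL and old CR against old AL. Of all entries tested, 11.3% were higher at this p in old AL and 12.1% in old CR, each against young AL. In old CR against old AL 12.0% passed in either direction, so 1 of 8 is near the share of all entries. DESeq2 called 1, rno-miR-29b-3p, higher in each comparison with young AL. In old CR against young AL, rno-miR-29b-3p had a log2 fold change of 0.78 with an edgeR adjusted p of 0.0512, and in old CR against old AL rno-miR-23a-3p had -0.45 with an edgeR adjusted p of 0.392.

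Several lists of other cell types held called members. Of the neural miRNAs rno-miR-346 rose from 0.114 CPM in young AL to 1.16 CPM in old CR (log2 fold change 3.30, edgeR adjusted p 0.00312) and rno-miR-598-3p from 1.78 to 3.54 CPM (0.99, adjusted p 0.00620). In old AL the means were 0.468 CPM of rno-miR-346 and 4.08 CPM of rno-miR-598-3p. Of 3 neuroendocrine miRNAs tested, edgeR and DESeq2 each called 1 in old AL against young AL and 2 in old CR against young AL, with rno-miR-375-5p at 0 in all libraries. Over all entries edgeR called 0.956% higher in old AL and 4.11% in old CR, and DESeq2 4.92% and 6.71%. The level of rno-miR-375-3p, a miRNA of endocrine cells, rose from 0.154 CPM in young AL to 0.994 CPM in old AL (log2 fold change 2.64, edgeR adjusted p 0.0376), and rno-miR-7b from 0.802 CPM in young AL to 1.94 CPM in old CR (1.27, adjusted p 0.0360). The mean of rno-miR-375-3p in old CR was 0.446 CPM, and that of rno-miR-7b in old AL was 1.21 CPM. In old CR against young AL the liver miRNAs rno-miR-122-3p and rno-miR-122b had log2 fold changes of 3.47 (edgeR adjusted p 0.0296) and 3.65 (adjusted p 0.0314). Their means were higher still in old AL, at 1.69 CPM beside 0.985 CPM in old CR for rno-miR-122-3p. For rno-miR-122b they were 116 and 64.7 CPM.

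Of the epithelial miRNAs, rno-miR-200b-3p was at 1.53 ± 1.73 CPM for young AL, 4.64 ± 2.24 for old AL and 19.8 ± 37.5 for old CR, with an edgeR adjusted p of 0.0796 in old CR against young AL, and rno-miR-203b-3p was at 1.92 ± 1.35, 6.60 ± 10.8 and 6.91 ± 5.74 CPM with an adjusted p of 0.0707 (SD, n = 6). Of 3 erythroid and 5 leukocyte miRNAs edgeR called 0 in any comparison, with 1 erythroid and 2 leukocyte miRNAs at an unadjusted p under 0.05 in old AL against young AL and 1 erythroid miRNA in old CR against old AL. Of all entries, 11.3% were higher at this p in old AL against young AL. In old CR against old AL 12.0% passed in either direction. DESeq2 called the erythroid rno-miR-144-5p in old AL against young AL (adjusted p 0.0113) and gave no adjusted p for 3 of the 5 leukocyte miRNAs there. In that comparison rno-miR-144-5p had a log2 fold change of 0.84 (edgeR adjusted p 0.0879), rno-miR-142-5p 2.25 (adjusted p 0.113) and rno-miR-223-3p 0.40 (adjusted p 0.153), and in old CR against old AL rno-miR-451-5p had -0.50 (adjusted p 0.440). The other arm of miR-144, rno-miR-144-3p, had -0.37 in old AL against young AL (edgeR adjusted p 0.716). There 2 of the 3 erythroid miRNAs were higher, with a median log2 fold change of 0.25.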
